A study of Mus musculus with 6 samples.

Results

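The outer segment structure and matrix genes are 9 genes whose proteins build, shape or surround the photoreceptor outer segment: Prph2, Rom1, Rp1, Rp1l1, Fscn2, Prom1, Cdhr1, Impg1 and Impg2. They were taken by name, for the known place of their proteins, with earlier results of these data known. All 9 were found among the 24062 gene symbols of the count table and passed the filter on low counts. RNA was measured by polyA-selected RNA-seq in 6 whole retinae at postnatal day 21 (P21) of mice labelled C57BL/6, which the study's methods give as a C57BL/6N background. In 3 retinae Chx10-Cre had removed Rb1 in a p107-null (Rbl1-null) background (Rb1/p107 double knockout, DKO), and in the other 3 it had removed Rb1 and Hells in that same p107-null background (Rb1/p107/Hells triple knockout, TKO). Every retina therefore carried Chx10-Cre, the floxed Rb1 allele and the p107 null allele, and the groups differed in floxed Hells, in which the helicase exon 12 is excised. The comparison asked how loss of Hells, an SNF2-family chromatin remodeler, changed expression in retinae that form retinoblastoma. Chx10-Cre acts in only part of the retinal progenitors (a mosaic), so each library also holds cells that kept the floxed alleles. There was no wild-type retina in this comparison. Total counts ranged from 10343907 in TKO3 to 14203098 in DKO3. Each count column carries its own number, but nothing in the labels says what it numbers or that the replicates came from separate animals. The p-values therefore measure only the spread between these samples. Single retinae are written as genotype and replicate number, DKO3 for example.

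The outer segment of a rod or cone is a modified cilium packed with membrane discs that hold the phototransduction proteins. New discs form at its base, their rims are bent and held by tetraspanins, and the stack stands on a microtubule axoneme and is bathed in a hyaluronan-rich interphotoreceptor matrix. Inherited mutations in genes of this kind are known causes of retinitis pigmentosa, cone-rod dystrophy and macular dystrophy. A bulk retina cannot tell fewer photoreceptors from less RNA per photoreceptor, and this holds for every difference in the level of photoreceptor genes given here.

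The label check came first. Hells had 60.8, 68.4 and 83.4 normalized counts in the TKO retinae and 678, 523 and 395 in the DKO retinae, where a normalized count is a read count scaled to the mean library size by edgeR's TMM factors. Hells was therefore lower in every TKO retina, by a log2 fold change of -2.91 (SE 0.225, edgeR adjusted p = 0.00359). The count covers the whole gene, including exons outside the deletion, and the markers of dividing cells were lower in the same retinae, as described with the other cell types. Rb1, floxed in both groups, had a log2 fold change of 0.34 (SE 0.0912, edgeR adjusted p = 0.0388), which did not reach the minimum fold. Its adjusted p passed 0.05 in 1 of the 6 fits that left out a retina, and the highest of those values was 0.129. Rbl1, null in both groups, had low values throughout, with 27.5, 20.0 and 13.5 normalized counts in TKO and 15.1, 16.6 and 24.2 in DKO.

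As a set, the 9 genes took a larger part of each TKO library. They held 1.15%, 1.05% and 0.720% of the counts in the TKO retinae and 0.291%, 0.271% and 0.50% in the DKO retinae, with means of 0.972% ± 0.224 and 0.354% ± 0.127 (SD, n = 3). The groups did not overlap and the means differed 2.74 times (exact permutation test, two-sided, p = 0.1, the smallest value that 3 against 3 retinae allow). A gene was called where its Benjamini-Hochberg adjusted p over the 16904 genes tested was at most 0.05, its absolute log2 fold change at least 1 and its mean normalized count at least 10. By edgeR's quasi-likelihood test 8 of these 9 passed in the direction of higher TKO values and 0 in the other, where 1.97% of all genes tested were called higher and 4.38% lower. Because the 9 genes were chosen with earlier results of these data known, these shares are a description only. The median log2 fold change was 1.71 over the 9 genes (range 1.11 to 2.03) and -0.01 over all genes tested. All 9 genes had every TKO retina above every DKO retina, which was so for 18.0% of the genes tested.

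The number of calls varied with single retinae. DKO3 was the highest DKO retina for 9 of 9 genes, at 1.40 to 2.56 times the mean of the other DKO retinae. TKO3 was the lowest TKO retina for 8 of 9 genes, the exception being Impg2. The number of the 9 genes called was 6 without TKO1, 3 without TKO2, 8 without TKO3, 2 without DKO1, 2 without DKO2 and 9 without DKO3. Rp1 and Rp1l1 were called in each of these 6 fits, and no gene changed direction in any of them.

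**Figure D1:**
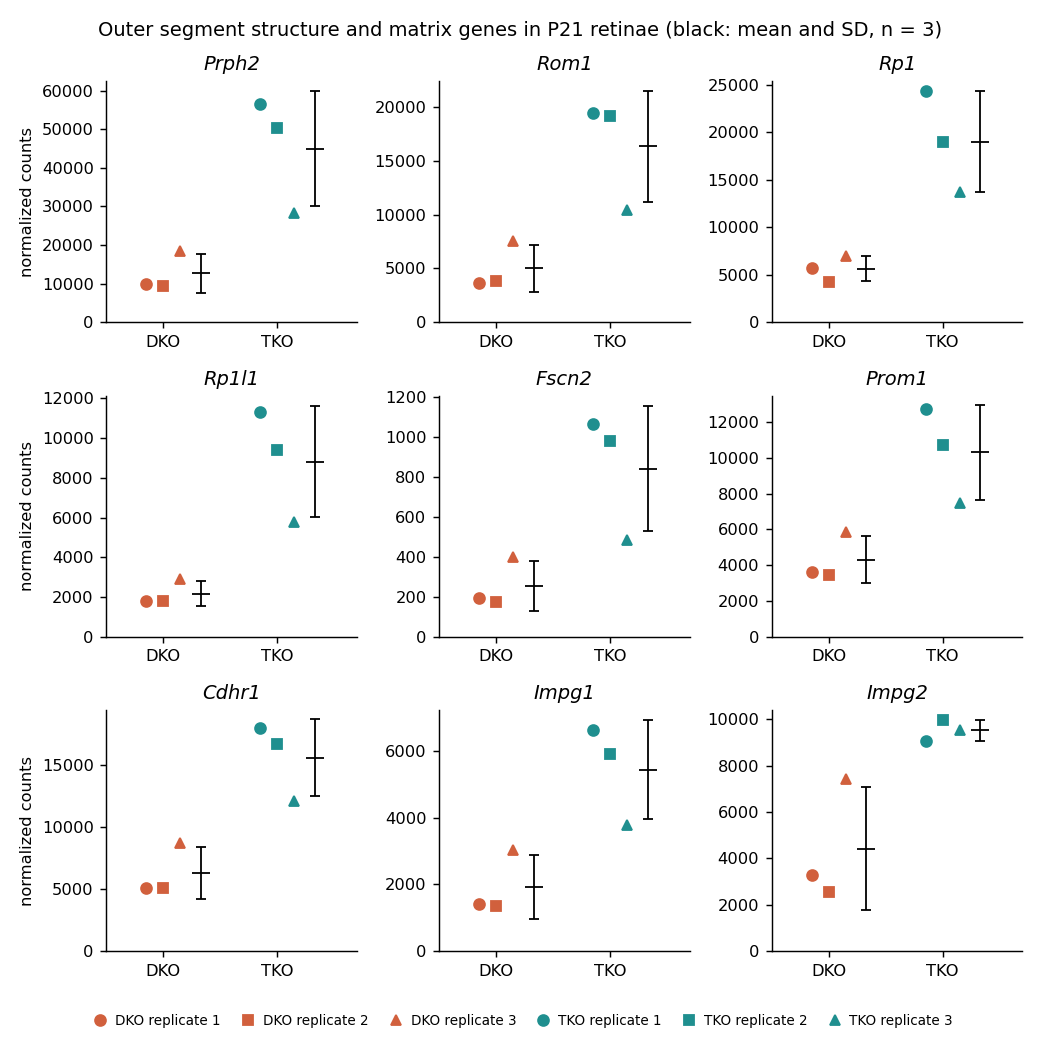
Normalized counts (linear axes from 0) of the 9 genes in each retina, DKO in orange and TKO in teal, with marker shape for the replicate number and black bars for the mean and SD (n = 3). Every TKO point lies above every DKO point, DKO3 is the highest DKO point in 9 of 9 panels, and TKO3 is the lowest TKO point in 8 of 9, Impg2 being the exception.

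The disc rim tetraspanin genes had the highest levels per exon length of the 9 genes. Prph2 encodes peripherin-2, which bends and seals the disc rim, and lies on chromosome 17 (GRCm38 chr17:46910459-46924933, plus strand, 3 exons, 346 codons). Rom1 encodes its partner, with which it forms hetero-oligomers, and lies on chromosome 19 (chr19:8927391-8929356, minus strand, 3 exons, 351 codons). Prph2 had 56495, 50338 and 28210 normalized counts in the TKO retinae and 9915, 9471 and 18504 in the DKO retinae. The lowest TKO retina was 1.52 times the highest DKO retina, and the fold change was 3.56 (log2 1.83, SE 0.329, edgeR adjusted p = 0.0110). For Rom1 the values were 19451, 19175 and 10414 in TKO and 3676, 3801 and 7514 in DKO. Rom1 was thus 3.27-fold higher in TKO (log2 1.71, SE 0.331, edgeR adjusted p = 0.0134), again with TKO3 and DKO3 nearest to each other. Prph2 was not called without DKO1 (log2 1.69, edgeR adjusted p = 0.0536) or DKO2 (log2 1.66, edgeR adjusted p = 0.0543). Rom1 was not called without either of those (log2 1.53 and 1.55, edgeR adjusted p = 0.0583 and 0.0628) or without TKO2 (log2 1.58, edgeR adjusted p = 0.0579).

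The ratio of the partners varied little over the 6 libraries. There were 2.90, 2.63 and 2.71 Prph2 counts for each Rom1 count in TKO and 2.70, 2.49 and 2.46 in DKO. These ranges overlapped, and the difference of 0.11 on the log2 scale had p = 0.2 in an exact permutation test.

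Because the 9 genes moved together, the stretches before their start sites were read for short letters that photoreceptor and cell-cycle factors are known to bind. RefSeq windows (GRCm38.p6) were found for 7 of the 9 genes (8 windows, Prom1 having 2), and the 250 bases before each start were searched on both strands beside those of all 32851 windows. TAATCC, a CRX-type core, occurred in none of the 8 windows and in 6.25% of all windows. TGCTGA, an NRL-type site, occurred in none of the 8 and in 16.1% of all, and TTTCCCGC or TTTGGCGC, E2F-type letters, in none of the 8 and in 1.30% of all. The shorter TAATC, which is contained in TAATCC and was added after the first search, occurred in 4 of the 8 windows (those of Prph2, Impg1 and Impg2 and 1 of the 2 of Prom1, which starts inside the annotated gene) and in 19.8% of all windows. A match of so few letters is a description of the sequence only. To show where these letters fall, the 150 bases upstream of the annotated transcripts are printed 5′ to 3′ on the gene's own strand for the tetraspanin pair and the matrix pair, with TAATC, or GATTA where it reads on the other strand, in capitals. They are chr17:46910309-46910458 (plus) for Prph2, chr19:8929357-8929506 (minus) for Rom1, chr9:80465482-80465631 (minus) for Impg1 and chr16:56204163-56204312 (plus) for Impg2.
Prph2: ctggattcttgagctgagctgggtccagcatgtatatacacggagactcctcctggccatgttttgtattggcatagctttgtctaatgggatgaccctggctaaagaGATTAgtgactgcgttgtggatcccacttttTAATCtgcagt
Rom1: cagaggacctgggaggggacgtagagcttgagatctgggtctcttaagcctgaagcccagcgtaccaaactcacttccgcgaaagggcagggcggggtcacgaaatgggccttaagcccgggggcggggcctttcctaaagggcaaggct
Impg1: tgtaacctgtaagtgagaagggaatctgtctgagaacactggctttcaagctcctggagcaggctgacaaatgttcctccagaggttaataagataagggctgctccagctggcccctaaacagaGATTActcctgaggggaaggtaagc
Impg2: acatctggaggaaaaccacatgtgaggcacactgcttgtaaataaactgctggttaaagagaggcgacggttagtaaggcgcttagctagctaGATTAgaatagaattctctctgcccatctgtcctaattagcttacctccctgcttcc
Counted from the RefSeq start, the Prph2 matches lay at bases -61 to -57 and -30 to -26, the printed Impg1 match at -68 to -64 and the Impg2 match at -57 to -53. The Rom1 stretch held none.

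The axonemal pair was called in every fit that left out a retina. RP1 and RP1L1 are doublecortin-domain proteins that bind the microtubules of the outer segment axoneme and keep discs aligned with it. Rp1 lies on chromosome 1 (chr1:3999557-4409241, minus strand) and Rp1l1 on chromosome 14 (chr14:63992506-64035025, plus strand). Rp1 had 24380, 18982 and 13676 normalized counts in TKO and 5657, 4275 and 6965 in DKO. The gap between the lowest TKO and the highest DKO retina was 1.96 times, and Rp1 was 3.38-fold higher in TKO (log2 1.76, SE 0.241, edgeR adjusted p = 0.00691). Rp1l1 had 11300, 9402 and 5763 in TKO and 1814, 1789 and 2889 in DKO. Its fold change of 4.08 was the highest of the 9 genes (log2 2.03, SE 0.275, edgeR adjusted p = 0.00691), with a gap of 1.99 times between the groups. Without any 1 retina their adjusted p stayed at or below 0.0388. The annotated features Gm6101 and Gm37483 lie on the same strand within the span of Rp1, and reads shared with them cannot be told apart.

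Within the pair the ratio was higher in every TKO retina. Rp1l1 had 0.463, 0.495 and 0.421 counts for each Rp1 count in TKO and 0.321, 0.419 and 0.415 in DKO. The groups did not overlap, though TKO3 and DKO2 differed by little, and the difference of 0.27 on the log2 scale had p = 0.1 in an exact permutation test, the smallest value possible.

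Fscn2 was the least abundant of the 9 genes. It encodes the retinal fascin, which bundles the actin filaments needed where new discs form, and lies on chromosome 11 (chr11:120361534-120368168, plus strand, 5 exons). It had 1063, 978 and 482 normalized counts in TKO and 196, 172 and 399 in DKO. TKO3 and DKO3 came within 1.21 times of each other, and the fold change was 3.29 (log2 1.72, SE 0.373, edgeR adjusted p = 0.0192). The call was lost when any of 4 retinae was left out: edgeR gave an adjusted p of 0.0592 without TKO1 (log2 1.52), 0.0746 without TKO2 (log2 1.60), 0.0778 without DKO1 (log2 1.56) and 0.0780 without DKO2 (log2 1.50). With robust dispersion estimates the edgeR adjusted p was 0.0586.

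The disc-forming pair had smaller fold changes than the rim and axonemal genes, a difference that was not tested. Prominin-1, encoded by Prom1, sits on the evaginating membrane at the outer segment base, where it meets the cadherin CDHR1, and Prom1 is also expressed outside photoreceptors. Prom1 lies on chromosome 5 (chr5:43993620-44102032, minus strand, 28 exons) and Cdhr1 on chromosome 14 (chr14:37077857-37098347, minus strand, 17 exons). Prom1 had 12749, 10730 and 7464 normalized counts in TKO and 3629, 3465 and 5851 in DKO. It was 2.39-fold higher in TKO (log2 1.26, SE 0.249, edgeR adjusted p = 0.0142). Cdhr1 had 17916, 16689 and 12077 in TKO and 5047, 5105 and 8701 in DKO, and was 2.48-fold higher in TKO (log2 1.31, SE 0.239, edgeR adjusted p = 0.0116). For both genes TKO3 was the lowest TKO retina and still stood above DKO3, by 1.28 times for Prom1 and 1.39 times for Cdhr1. Neither was called without TKO2 (Prom1 log2 1.23, edgeR adjusted p = 0.0590, and Cdhr1 log2 1.26, edgeR adjusted p = 0.0527). The same held without DKO1 (edgeR adjusted p = 0.0635 and 0.0536, log2 1.15 and 1.17) and without DKO2 (edgeR adjusted p = 0.0649 and 0.0560, log2 1.12 and 1.18). Prom1 overlaps the antisense transcript Gm16401, and since the strand setting of the counting is not stated, reads of the gene and its partner cannot be told apart. Gm42716 overlaps Prom1 on the same strand, and reads shared with it cannot be told apart either.

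Of the matrix proteoglycan genes, TKO3 was the lowest TKO retina for Impg1 but not for Impg2, and DKO3 was the highest DKO retina for both. IMPG1 and IMPG2 bind hyaluronan and chondroitin sulfate around the outer segments, IMPG2 being anchored in the photoreceptor membrane. Impg1 lies on chromosome 9 (chr9:80313330-80465481, minus strand, 17 exons) and Impg2 on chromosome 16 (chr16:56204313-56273756, plus strand, 20 exons), and the processed pseudogene Gm18292 overlaps Impg1 on the opposite strand. Impg1 had 6627, 5907 and 3783 normalized counts in TKO and 1403, 1349 and 3041 in DKO, and was 2.82-fold higher in TKO (log2 1.49, SE 0.334, edgeR adjusted p = 0.0213). Impg2 had 9039, 9956 and 9540 in TKO, the most even TKO values of the 9 genes (coefficient of variation 4.83%), and 3273, 2537 and 7441 in DKO, the most uneven DKO values (59.9%). Its groups did not overlap, but with a fold change of 2.15 it was the only one of the 9 genes that did not pass the test (log2 1.11, SE 0.347, edgeR adjusted p = 0.0631). Without DKO3 the Impg2 log2 fold change was 1.71 (edgeR adjusted p = 0.00213), and in the other 5 fits that left out a retina it was not called. Impg1 was not called without TKO1 (edgeR adjusted p = 0.0648, log2 1.33), TKO2 (0.0761, log2 1.43), DKO1 (0.0812, log2 1.31) or DKO2 (0.0829, log2 1.29), nor with robust dispersion estimates (0.0628). Counts of Impg1 for each Impg2 count were 0.733, 0.593 and 0.397 in TKO and 0.429, 0.532 and 0.409 in DKO. They overlapped, with a log2 difference of 0.30 and p = 0.4 in an exact permutation test.

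Levels between genes were compared as CPM (counts scaled to the same TMM-scaled library size) per kilobase of the union of annotated exons. Prph2 was at 1185 ± 392 in TKO and 333 ± 134 in DKO, followed by Rom1 at 852 ± 268 and 260 ± 114 (SD, n = 3). Cdhr1 came next on this scale in both genotypes, at 284 ± 56.2 and 115 ± 38.2. In TKO the following levels were Rp1 at 122 ± 34.4, Impg1 at 118 ± 32.2, Prom1 at 114 ± 29.4, Rp1l1 at 92.1 ± 29.4 and Impg2 at 81.1 ± 3.91, of which no neighbours differed by more than the larger SD. Fscn2 closed the order at 31.5 ± 11.7 in TKO and 9.57 ± 4.68 in DKO. In DKO the middle of the order was Prom1 at 47.5 ± 14.7, Impg1 at 42.1 ± 20.9, Impg2 at 37.6 ± 22.5, Rp1 at 36.2 ± 8.64 and Rp1l1 at 22.6 ± 6.56. Steps larger than the spread were Rom1 over Cdhr1, Cdhr1 over the next gene, and Fscn2 under the gene above it in both genotypes, and in DKO also Rp1 over Rp1l1. Prph2 exceeded Rom1 in all 3 retinae of each genotype although the difference of the means was within 1 SD. Per kilobase of the longest transcript Rp1 was at 219 and 64.8 and Prom1 at 199 and 83.4 in TKO and DKO, which changed the order below Cdhr1: Rp1 moved from place 7 to 5 and Impg1 from 5 to 7 in DKO, and in TKO Prom1 moved from 6 to 5, Impg1 from 5 to 6, Rp1l1 from 7 to 8 and Impg2 from 8 to 7.

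**Figure D2:**
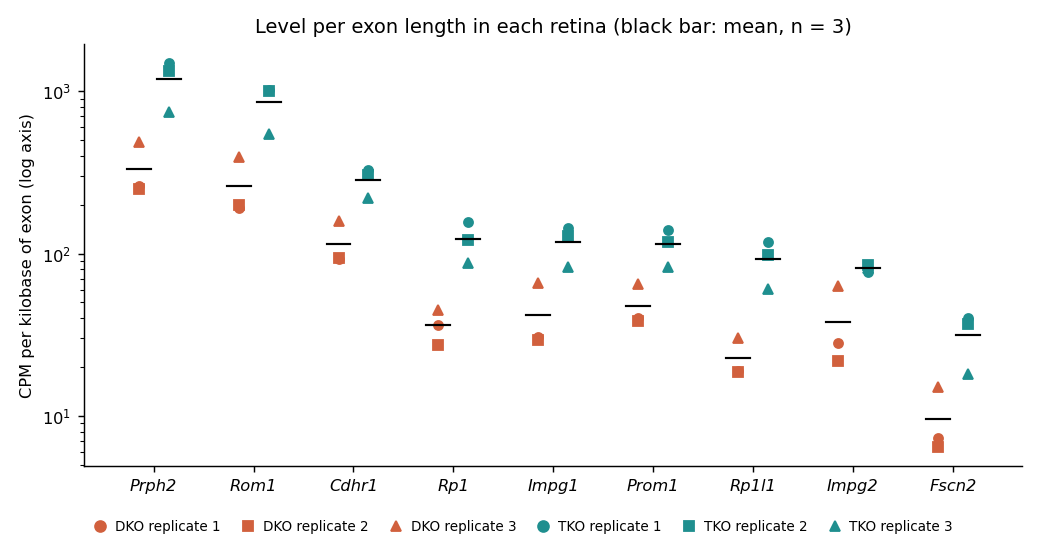
Level of each gene as CPM per kilobase of exon union (log axis) in each retina, DKO in orange and TKO in teal, with bars for the group mean (n = 3). Prph2 and Rom1 lead in both genotypes and Fscn2 is lowest, at 31.5 in TKO and 9.57 in DKO.

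The differences were then set against other rod transcripts of the same library. The 10 rod markers (among them Gnat1, Pde6a, Pde6b, Sag, Nrl and Gnb1), which share no gene with the 9, were all called higher in TKO with a median log2 fold change of 1.78, lowest for the widely expressed Gnb1 (1.37) and highest for the rod factor Nrl (2.08). Gnat1, the rod transducin alpha subunit, had 158002, 146002 and 81442 normalized counts in TKO and 26618, 27922 and 53067 in DKO. The number of rod markers called was 5 without TKO2, 4 without DKO1 and 3 without DKO2. Divided by the summed rod markers, Prph2 stood at 7.33%, 7.62% and 7.38% in TKO and 7.11%, 6.97% and 7.37% in DKO. Rom1, Rp1 and Fscn2 overlapped likewise, with mean log2 differences between -0.05 and -0.04. The exact permutation p of these 4 genes was at least 0.2, which does not show that their ratios did not differ.

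Prom1 and Cdhr1 were lower relative to the rod markers in every TKO retina. Prom1 was at 1.65%, 1.63% and 1.95% of the summed rod markers in TKO and at 2.60%, 2.55% and 2.33% in DKO (log2 difference -0.52). Cdhr1 was at 2.32%, 2.53% and 3.16% in TKO and at 3.62%, 3.76% and 3.46% in DKO (log2 difference -0.45). In the other direction, Rp1l1 was at 1.47%, 1.42% and 1.51% in TKO and at 1.30%, 1.32% and 1.15% in DKO (log2 difference 0.23). These 3 genes and Impg1 (log2 difference -0.22) had an exact permutation p of 0.1, the smallest possible, and an adjusted p of 0.225 over the 9 ratios compared. With the geometric mean of the rod markers as denominator, a setting added after the data were seen, Impg1 overlapped between the groups and the other 3 genes did not. Impg2 overlapped, from 1.17% in TKO1 to 2.96% in DKO3.

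**Figure D3:**
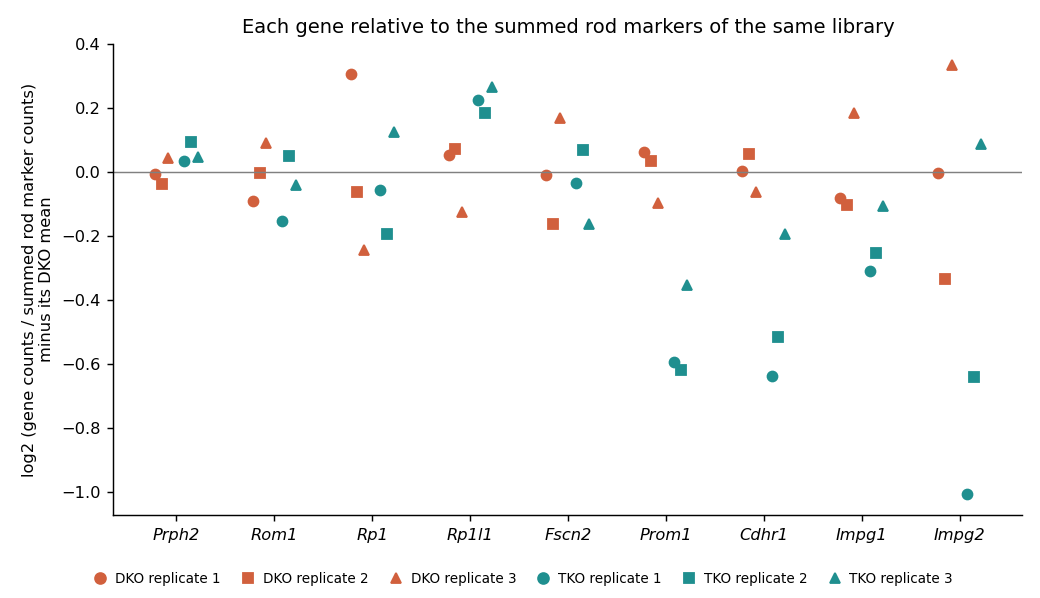
Log2 ratio of each gene's counts to the summed counts of 10 rod markers in the same library, drawn as the difference from the mean DKO ratio of that gene, DKO in orange and TKO in teal. Prph2, Rom1, Rp1 and Fscn2 overlap around 0, Rp1l1 lies higher in TKO (mean 0.23), and Prom1 and Cdhr1 lie lower in TKO (means -0.52 and -0.45).

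Over the 6 retinae the log2 normalized counts of the 9 genes followed nearly one profile, most of which is the step between the genotypes and the departure of DKO3 and TKO3. Among the 36 pairs Pearson's r ran from 0.869 (Rp1 and Impg2) to 0.998 (Prph2 and Prom1), with a median of 0.989, and the 8 lowest values all involved Impg2. Genes outside the 9 with the most similar profile to their standardised mean, of 14967 compared over the 6 retinae, were Pde6a, Gucy2e, Ankrd33b, D11Wsu47e, Alg11, Pitpnm1, Casz1, Vtn, Guca1a and Grk1 (r from 0.998 to 0.999). Pde6a, Gucy2e, Guca1a and Grk1 encode rod phototransduction and guanylate cyclase proteins. The sizes differed within this similarity: Guca1a, the guanylate cyclase activator, had a log2 fold change of 1.88, Pitpnm1 of 0.74 and Alg11, an enzyme of N-glycan assembly, of 0.31. These libraries share their total RNA and their scaling, so the values of r describe likeness only.

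Genes that work beside the 9 in the outer segment were higher too. Of 12 disc membrane partners, the channels, exchangers, flippases and cyclases of the disc and plasma membrane, 12 were called higher in TKO, with a median log2 fold change of 1.67. The potassium-dependent exchanger Slc24a1 was at 1.83 (edgeR adjusted p = 0.00821) and the retinal flippase Abca4 at 1.73 (edgeR adjusted p = 0.00883). Rd3, which keeps guanylate cyclase inactive on its way to the outer segment, was lowest at 1.02 (edgeR adjusted p = 0.0325). Without DKO1 the count was 7 of 12, and it was 7 of 12 without DKO2.

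The connecting cilium and disc assembly genes were mixed. The adjusted p was passed by 11 with higher TKO values and by 0 with lower, some of these under the minimum fold. Of 18 tested, 5 were called higher and 0 lower, with a median log2 fold change of 0.69, and the 5 were Tulp1 (1.55), Fam161a (1.52), Unc119 (1.48), Rpgrip1 (1.37) and Mak (1.27), Fam161a and Mak being named here after their values were seen. Tulp1 acts in trafficking to the outer segment, Unc119 carries acylated cargo such as transducin, and Rpgrip1 anchors RPGR in the connecting cilium. Rp2h, the mouse RP2 gene, had the lowest value at -0.28 (edgeR adjusted p = 0.151). The count was 3 without TKO1, 2 without TKO2, 1 without DKO1 and 1 without DKO2, and it was 3 with robust dispersion estimates.

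Matrix and adhesion genes around the outer segment gave 5 called higher and 0 lower of 12, with a median log2 fold change of 0.68. Rbp3, the retinoid carrier of the interphotoreceptor matrix, had 69150, 66030 and 39867 normalized counts in TKO and 14870, 13358 and 30687 in DKO (log2 1.57, edgeR adjusted p = 0.0193). Also called were Egflam (1.22) and Gpr98, also named Adgrv1 (1.07), which were named after their values were seen and encode pikachurin and a large adhesion receptor. Mfge8, an opsonin, was at 0.70 (edgeR adjusted p = 0.00936), under the minimum fold, and Vcan, the hyaluronan-binding versican, was lowest at -1.02 (edgeR adjusted p = 0.219). The called number was 2 without TKO1, 3 without TKO2, 2 without DKO1 and 1 without DKO2, and without TKO3 it was 5 higher and 1 lower.

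Of 10 photoreceptor regulators, 7 passed the adjusted p with higher TKO values and 0 with lower, some under the minimum fold. By all criteria 3 were called higher and 0 lower, with a median log2 fold change of 0.83 over the 10. They were Crx at 1.44 (edgeR adjusted p = 0.00821), Nrl at 2.08 (edgeR adjusted p = 0.00755) and Nr2e3 at 1.61 (edgeR adjusted p = 0.00987), the homeobox, leucine zipper and nuclear receptor factors of photoreceptor and rod identity. Rxrg, a cone regulator, was lowest at 0.01 (edgeR adjusted p = 0.968). Without DKO3 the count was 6.

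The relatives of the 9 genes in the fascin, prominin, cadherin-related and doublecortin families held no gene called higher. Of 9 tested, 0 were called higher and 1 lower, with a median log2 fold change of -0.35. The one called lower was Dcx, named after its value was seen, which encodes doublecortin of migrating neurons, with 164, 152 and 283 normalized counts in TKO and 849, 733 and 466 in DKO (log2 -1.78, edgeR adjusted p = 0.00821). Fscn1, the widely expressed fascin, was at -0.34 (edgeR adjusted p = 0.0427), Dclk2 at -0.51 (edgeR adjusted p = 0.0153) and Dclk1 at -0.08 (edgeR adjusted p = 0.636). Cdhr2 had the lowest value at -1.78, on at most 18.8 normalized counts in any retina, and Cdhr3 the highest at 0.53 (edgeR adjusted p = 0.366).

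**Figure D4:**
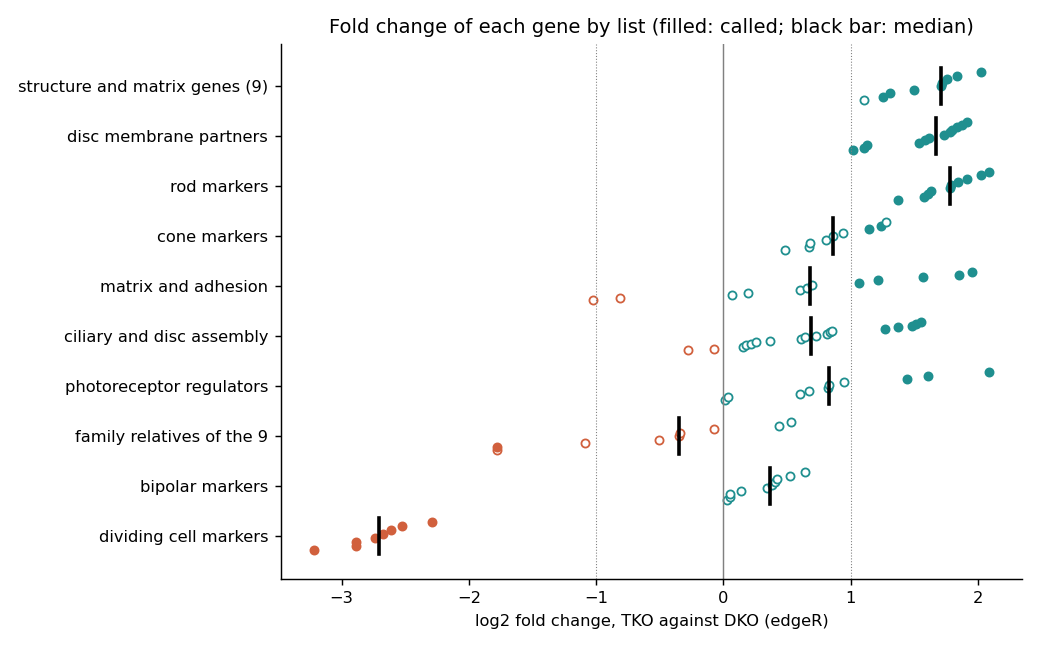
Log2 fold change (TKO against DKO, edgeR) of each gene, by list, filled where called and open where not, with black bars for medians and dotted lines at 1 and -1. The 9 structure and matrix genes (median 1.71) lie with the disc membrane partners (1.67) and rod markers (1.78), and the medians of the family relatives (-0.35) and dividing cell markers (-2.71) lie below 0.

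Markers of other retinal cells moved with the same retinae. All 8 dividing cell markers were called lower in TKO, with a median log2 fold change of -2.71. Their summed level was 35.6, 66.7 and 149 CPM in TKO and 795, 579 and 368 in DKO, with Top2a the most abundant and none at 0. TKO3 and DKO3 were thus the nearest to the other genotype here too, as for 8 of the 9 genes. The count was 5 without TKO2, 5 without DKO1 and 5 without DKO2. Of 6 microglia markers 4 were called lower (Cx3cr1, Csf1r, Aif1 and C1qa), with sums of 68.9, 80.3 and 115 in TKO and 188, 213 and 144 in DKO, Csf1r the most abundant and none at 0. That count was 1 without TKO1, 0 without TKO2, 1 without DKO1 and 0 without DKO2. The part of these cells in the results for the 9 genes was not tested.

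Cone markers had smaller fold changes than rod markers, a difference that was not tested. Of 9 cone markers 2 were called higher, Opn1sw at 1.24 (edgeR adjusted p = 0.0467) and Arr3 at 1.14 (edgeR adjusted p = 0.0279), with a median log2 fold change of 0.86. An unadjusted edgeR p under 0.05 was found for 8 of the 9 cone markers. Their summed level was 1452, 1017 and 563 CPM in TKO and 397, 459 and 643 in DKO, so that DKO3 exceeded TKO3, unlike for the 9 genes. The M-opsin gene Opn1mw had the highest value at 1.28 (edgeR adjusted p = 0.0990) and Cngb3 the lowest at 0.48. The count was 0 without TKO1, 0 without TKO2, 6 without TKO3, 0 without DKO1, 0 without DKO2 and 4 without DKO3, and it was 1 with DESeq2, 1 with library totals and 0 with robust dispersion estimates.

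Markers of inner retinal neurons were then counted. None of 10 bipolar markers was called (4 at an unadjusted p under 0.05, 3 of them past the adjusted p with higher values in TKO but under the minimum fold, 0 called by DESeq2), with a median log2 fold change of 0.37 and Cabp5 highest at 0.64. None of 8 amacrine markers was called (3 at an unadjusted p under 0.05, 0 by DESeq2, median -0.08), nor of 7 ganglion cell markers (1 and 0, median 0.18). None of 5 horizontal cell markers was called by edgeR with the settings used throughout, and 2 had an unadjusted p under 0.05, with a median of -0.70. DESeq2 called 1 of them lower, as did edgeR with library totals, no low-count filter, filterByExpr or robust dispersion estimates, and without TKO3 edgeR called 2 lower. Of 7 Muller glia markers Glul, glutamine synthetase, was called higher at 1.15 (edgeR adjusted p = 0.00548), and Apoe had the lowest value at -0.90 (edgeR adjusted p = 0.0466). With library totals in place of TMM factors 0 Muller glia markers were called higher and 1 lower, and without TKO3 the numbers were 1 and 1.

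Markers of tissue next to the retina were uneven between libraries, the lens sum being higher in every TKO retina. Lens crystallin Cryaa had 299, 1464 and 218 normalized counts in TKO and 11.3, 5.25 and 14.7 in DKO, and 3 of 7 lens markers were called higher (Cryaa, Crybb2 and Cryba1). The lens sum was 44.3, 238 and 37.4 CPM in TKO and 8.33, 8.31 and 8.19 in DKO, Cryaa was the most abundant, and Lim2 was at 0 in every DKO retina and in TKO1. The lens count was 1 without DKO1 and 1 without DKO2. Of 8 retinal pigment epithelium markers 1 was called higher, Rpe65, with 154, 258 and 49.1 in TKO and 1.88, 18.4 and 35.4 in DKO (edgeR adjusted p = 0.0324). Their sum was 119, 199.7 and 96.9 in TKO and 32.4, 93.4 and 105 in DKO, Ttr was the most abundant and none was at 0. The count was 0 without TKO1, TKO2, DKO1 or DKO2, and it was 0 with robust dispersion estimates. TKO2 had the highest sum of both marker lists. The part of adjacent tissue in the results for the 9 genes was not tested.

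**Figure D5:**
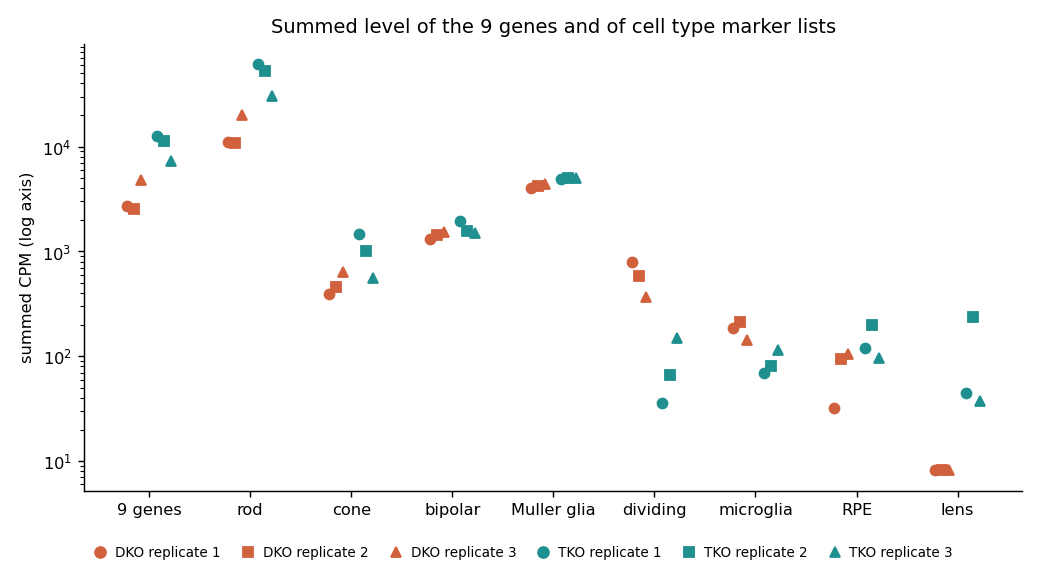
Summed CPM (log axis) of the 9 genes and of marker lists of rods, cones, bipolar cells, Muller glia, dividing cells, microglia, retinal pigment epithelium (RPE) and lens in each retina, DKO in orange and TKO in teal. The 9 genes and the rod markers rank the 6 retinae alike, dividing cell markers run from 35.6 in TKO1 to 795 in DKO1, and TKO2 stands apart in lens markers at 238.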

How the data were processed

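Retinal RNA was sequenced after TruSeq Stranded mRNA library preparation. The deposited values are raw read counts per gene symbol for 6 retinae, which the authors made by alignment to GRCm38 (mm10). The study's methods name STAR and HTSeq, whereas the submitters' processing notes list TopHat2, featureCounts and DESeq2, and the strand setting of the counting is not given in the sources used here. Multimapping reads and overlapping genes could change single counts.

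The 9 genes, the gene lists and the tests were chosen with earlier results of these data known. Genes with a summed count under 10 were removed, leaving 16904, and TKO was compared with DKO by edgeR 4.0.16 (R 4.3.3, TMM factors, quasi-likelihood test, Benjamini-Hochberg adjustment over all genes tested, genotype as the term). DESeq2 1.42.0, other scalings and filters, robust dispersions, a replicate term and each retina left out in turn were alternatives. The edgeR step was tested on counts simulated with the same dispersion for every gene. By adjusted p it recovered 91 of 100 genes changed 2-fold and 100 of 100 changed 4-fold, and 4 of 16565 unchanged genes passed. The simulation held no departing library like DKO3 or TKO3, so it does not give error rates for these data. Ratios were compared by two-sided exact permutation tests over the 6 retinae (SciPy 1.17.1). Exon lengths and gene positions came from GENCODE M21 (GRCm38) and windows before start sites from RefSeq (GRCm38.p6). Of each list, the 3 most abundant genes, those with the highest and lowest fold change and any called against the majority were named, beside the 10 genes most like the 9 in profile (log2 of normalized counts plus 0.5). Prcd, Rp2 and Adgrv1 were counted as Gm11744, Rp2h and Gpr98 by RefSeq synonyms, Pcare, Cfap418 and Cdhr4 were not found under these symbols, and Fscn3 did not pass the filter. Some genes counted in the lists are not reported here by name.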

Additional observations from a re-analysis of the deposited data

How the results depend on the processing

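The number of the 9 genes called depended on which retinae were used, and no setting turned the direction of any of the 9 genes. DESeq2, RLE size factors, library totals, scaling without photoreceptor genes and other filters on low counts each called the 8 genes named above and not Impg2, and robust dispersion estimates called 6, with edgeR adjusted p of 0.0586 for Fscn2 (log2 1.72) and 0.0628 for Impg1 (log2 1.49). Leaving out each retina in turn gave 2 to 9 of the 9 genes called, and 121 to 476 genes called higher and 312 to 1024 called lower over all genes tested. The log2 fold changes over these fits ran from 1.64 to 2.22 for Prph2, 1.53 to 2.13 for Rom1, 1.50 to 2.20 for Fscn2, 1.08 to 1.54 for Prom1, 1.17 to 1.62 for Cdhr1, 1.29 to 1.98 for Impg1 and 0.83 to 1.71 for Impg2, the last value, without DKO replicate 3, being its only call. Fewer genes than with all 6 retinae were called in each direction without TKO replicate 1, TKO replicate 2, DKO replicate 1 or DKO replicate 2, and more without TKO replicate 3 or DKO replicate 3; the cause was not tested. With no minimum fold change 1225 genes were called higher and 1496 lower, and the same 8 of the 9 genes passed. Library totals in place of TMM factors lowered the median over all genes tested from -0.01 to -0.17 on the log2 scale and that over the 9 genes from 1.71 to 1.55, and raised the share of calls that were lower from 69.0% to 79.9% (247 higher and 983 lower, against 333 and 741). Rbl1, never called, was at 0.13, at -0.036 with library totals, and between -0.15 and 0.36 when a retina was left out.

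The replicate numbers gave no clear pairing of the retinae. Deviations from the group means correlated at 0.069, -0.045 and -0.18 for numbers 1, 2 and 3 over 14976 genes, and not every retina correlated best with its own number. With so few retinae in each group these correlations cannot exclude a pairing. A fit with the replicate number as a block left 15 genes called higher, 75 lower and 0 of the 9 genes. Under the block the log2 fold changes were 1.86 for Prph2, 1.76 for Rom1, 1.75 for Rp1, 2.02 for Rp1l1, 1.75 for Fscn2, 1.27 for Prom1, 1.34 for Cdhr1 and 1.58 for Impg1, with edgeR adjusted p from 0.0566 to 0.0900. The lowest value of any of the 9 genes was 172 normalized counts, for Fscn2 in DKO replicate 2, and the effect of depth on the calls was not tested.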
